A study of Caenorhabditis elegans with 3 samples.

Results

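The fatty acid desaturases and elongases described here are 10 genes of the nematode Caenorhabditis elegans, taken by symbol from the 19194 genes of the deposited table: the desaturase genes fat-1, fat-2, fat-3, fat-4, fat-5, fat-6 and fat-7 and the elongase genes elo-1, elo-2 and elo-5. All 10 were found, and each had reads in at least 1 library. The study read native polyadenylated RNA on a nanopore device, without copying it into cDNA, from the wild-type strain N2 at 3 stages: embryos of mixed stages, first-stage (L1) larvae and young adults. Each stage is 1 library of whole animals or embryos with no replicates, and no other treatment or allele is named, so the values below compare libraries, and the difference between animals of one stage is not measured. In whole-animal RNA, fewer cells of a type and less RNA per cell cannot be told apart.

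Desaturases place a double bond at a fixed position of a fatty acid chain, and elongases start the lengthening of the chain. In C. elegans the delta-9 desaturases FAT-5, FAT-6 and FAT-7 turn saturated into monounsaturated fatty acids. FAT-2 (delta-12), FAT-3 (delta-6), the elongase ELO-1, FAT-4 (delta-5) and the omega-3 desaturase FAT-1 then lead on to the long polyunsaturated fatty acids, which the worm makes without a dietary supply. ELO-2 lengthens palmitic acid, and ELO-5, with ELO-6, makes branched-chain fatty acids that the worm needs to grow. The intestine is a main site of this fat metabolism, and the epidermis is another.

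Estimated reads, rounded per gene, came to 941679 in embryo, 1017133 in L1 and 1611115 in young adult. Levels are given as RPM, the reads in every 1000000 reads of a library, and 3 reads, the floor used for a count of 0, are 3.19 RPM in embryo, 2.95 RPM in L1 and 1.86 RPM in young adult. A ratio is the read share of the later stage over that of the earlier one, with its exact 95% binomial interval in brackets, which covers counting error only. Genes with 20 or more reads in a pair of libraries were compared, and a call of higher or lower needs the bound closest to 1 to be 2-fold or more away from it. Ribosomal protein genes took 11.1% of the reads in embryo, 33.4% in L1 and 28.2% in young adult, and the median log2 ratio of all compared genes was -1.14 for L1 against embryo, 0.32 for young adult against L1 and -0.71 for young adult against embryo. Of the genes called for L1 against embryo, 71.2% were lower, but 41.8% with edgeR TMM factors, which moved the median by 0.87. For young adult against embryo these shares were 69.0% and 46.9%, with a shift of 0.80, and for young adult against L1 they were 49.5% and 53.2%, with a shift of -0.07. Leaving ribosomal protein and mitochondrial genes out of the totals moved the median of young adult against L1 by -0.16.

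The stage labels were compared with marker genes. A set of 6 embryonic genes summed to 3344 RPM in embryo, 130 in L1 and 788 in young adult. Most of the embryo sum was ttr-50, at 1985 RPM in embryo and 19.2 in young adult. Most of the young adult sum was pos-1 (386 RPM, 721 in embryo), mex-5 (286, 246 in embryo) and pie-1 (97.4, 90.3 in embryo). None of pos-1, mex-5 and pie-1 was called between young adult and embryo by the 2-fold rule. The counting intervals of mex-5 and pie-1 overlap between these libraries. Those of pos-1 do not, at 356 to 418 RPM in young adult and 668 to 777 in embryo. The hch-1 gene had 266 reads in embryo and 0 in young adult, and end-1 had 18 and 0. The 6 adult genes, of yolk, sperm, eggshell and adult cuticle, summed to 106 RPM in embryo, 721 in L1 and 6533 in young adult. Nearly all of the embryo sum was cpg-2, at 105 RPM there and 121 in L1, with no call between these libraries. In the embryo library vit-2, vit-5, vit-6 and col-19 were at 0. All 6 had reads in the L1 library, at 3.33% (col-19) to 18.3% (vit-2) of their young adult level, so the library labelled L1 held some RNA of genes that mark adults. For comparison, the L1 level was above the young adult level for 6 of the 7 desaturase genes, and it was 71.1% of that level for elo-1, 51.7% for elo-5, 21.7% for elo-2 and 0% for fat-7. The part of adult RNA in the values below was not tested. The summed level of 10 intestine markers was 800 RPM in embryo, 3110 in L1 and 3654 in young adult, with none at 0 in any of them. Most of the young adult sum was asp-1, at 244 RPM in embryo, 1681 in L1 and 2794 in young adult. Of the 10, 5 were called higher and 2 lower in L1 than in embryo, where 13.4% of all compared genes were called higher and 33.1% lower. The lower calls were elt-7 and act-5, neither of them with TMM factors. In young adult against L1, 2 were called higher and 4 lower, where 14.5% of all compared genes were called higher and 14.2% lower. The median log2 ratio of the 10 was 1.04 for L1 against embryo. For young adult against L1 it was -1.02, although the sum was larger in young adult. The 6 epidermis markers summed to 704 RPM in embryo, 174 in L1 and 140 in young adult. Of these, elt-3 was at 0 in all 3 libraries, rol-6 in the embryo library and dpy-7 and bus-8 in the young adult library. The 7 germline markers summed to 392, 187 and 1465 RPM, with none at 0. What these tissue shares contribute to the desaturase and elongase values was not tested.

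Together the 10 genes took a larger share of the L1 and young adult libraries than of the embryo library. They held 0.0644% of all reads in embryo, 0.654% in L1 and 0.348% in young adult. The 7 desaturase genes held 0.0476% in embryo, 0.581% in L1 and 0.201% in young adult, so their share was largest in L1. The 3 elongase genes held 0.0168% in embryo, 0.0732% in L1 and 0.147% in young adult, and their share was largest in young adult. The plot of levels by library shows both patterns gene by gene.

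**Figure D1:**
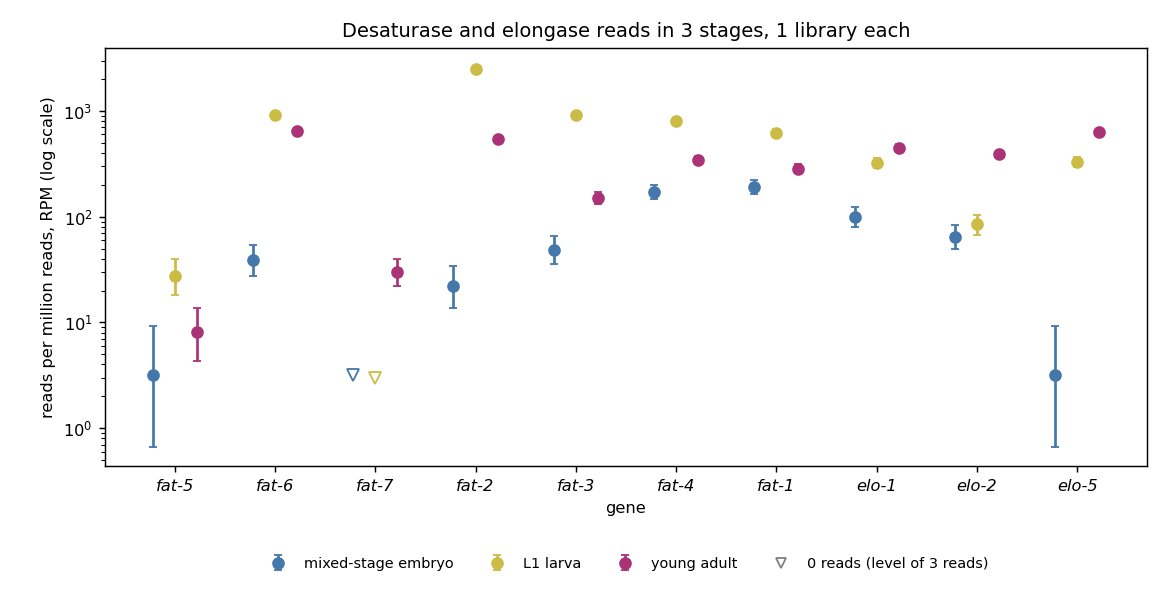
RPM (log scale) of the 10 genes in the embryo, L1 and young adult libraries, 1 library each; bars are exact 95% Poisson intervals for counting error, and open triangles mark libraries with 0 reads, drawn at the level of 3 reads. The L1 library is the highest for 6 of the 7 fat genes, and the young adult library for fat-7 and the 3 elo genes.

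Counted over the members, 8 of 9 compared were called higher and 0 lower in L1 than in embryo (fat-7, with 0 reads in both, was not compared), where 13.4% of all compared genes were called higher and 33.1% lower. The median log2 ratio of the 9 was 2.91, against -1.14 for all compared genes. In young adult against L1, 2 of 10 were called higher (fat-7 and elo-2) and 3 lower (fat-2, fat-3 and fat-4), where 14.5% of all compared genes were called higher and 14.2% lower. The share called higher is near that of all compared genes. The median log2 ratio was -0.82, against 0.32 for all compared genes. With the milder rule that the interval leaves out 1, 4 members were higher (fat-7, elo-1, elo-2 and elo-5) and 6 lower (the other desaturase genes), where 39.7% of all compared genes were higher and 28.2% lower. In young adult against embryo, 7 of 9 were called higher and 0 lower, with 13.2% of all compared genes higher and 29.3% lower. The median log2 ratio of the 9 was 2.58, against -0.71 for all compared genes. With TMM factors 9 of 9 were called higher there, where 19.6% of all compared genes were. In young adult against L1 2 were then called higher and 4 lower, with 13.1% of all compared genes higher and 14.9% lower. The comparisons share libraries and are not independent of each other. In none of 28 ratios of members did the direction change with any of the other 3 scalings.

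**Figure D2:**
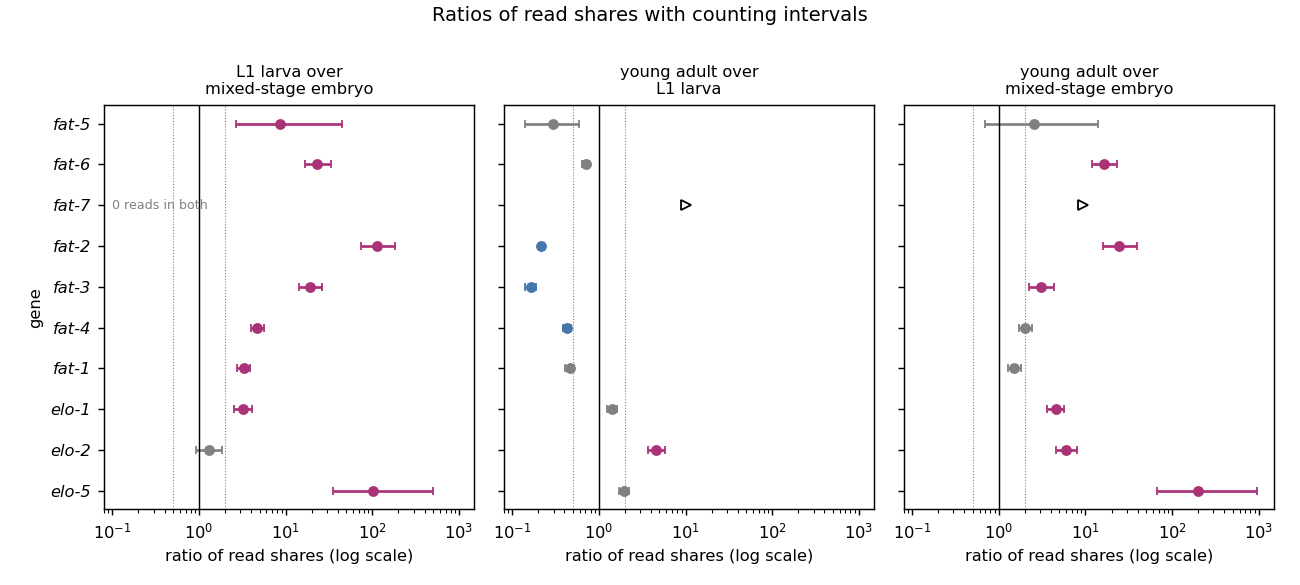
Ratio of read shares (log scale) of each gene for L1 over embryo, young adult over L1 and young adult over embryo, with exact 95% binomial intervals; red points are called higher, blue points lower and grey points neither or not compared, dotted lines mark 2-fold, and open triangles are the values of fat-7 against the floor of 3 reads. All points with reads lie above 1 in the first and last panels, and in the middle panel 6 of the 7 fat genes lie below 1 and the 3 elo genes above it.

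Among the delta-9 desaturase genes, fat-6 carried nearly all reads. FAT-6 and FAT-7 are closely related enzymes that act mainly on stearic acid to give oleic acid, whereas FAT-5 prefers palmitic acid. The fat-6 gene (chromosome IV, 11913692 to 11915687 on the minus strand, 5 exons, build WBcel235) had 37 reads in embryo, 930 in L1 and 1032 in young adult, which is 39.3, 914 and 641 RPM. The embryo value was the lowest by far, and the L1 and young adult values were near each other. It was 23.3-fold higher in L1 than in embryo (16.8 to 33.3) and 16.3-fold higher in young adult than in embryo (11.7 to 23.3). Its young adult level was 1.43-fold below that of L1 (1.30 to 1.56), which the rule calls neither higher nor lower. Of all delta-9 reads, fat-6 held 92.5% in embryo, 97.1% in L1 and 94.4% in young adult.

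The fat-7 gene (chromosome V, 7151353 to 7153146, minus strand, 5 exons) was seen in the young adult library alone among the 3. It had 0 reads in embryo, 0 in L1 and 48 in young adult, or 29.8 RPM there. Set against the floor of 3 reads this is at least 10.1-fold higher in young adult than in L1 and at least 9.35-fold higher in young adult than in embryo. The exact 95% intervals, which allow more than 3 reads behind a count of 0, start at 7.90 and 7.32. Because the sequences of fat-6 and fat-7 are alike, reads of one could be listed under the other. In the young adult library fat-7 had 4.39% of 1093 delta-9 reads (3.26% to 5.78%), and in the L1 library it had 0 of 958, where the floor of 3 reads is 0.313%. The fat-5 gene (chromosome V, 17725004 to 17726818, plus strand, 3 exons) was the sparsest, with 3 reads in embryo, 28 in L1 and 13 in young adult. Its L1 share was 8.64-fold higher than in embryo (2.67 to 44.4), and its young adult share was 3.41-fold below L1 (1.71 to 7.17), which misses the threshold. With 16 reads over young adult and embryo it was not compared between those. In the annotation fat-5 overlaps its neighbour twk-42 by 28 bases, and how the authors assigned reads there is not given.

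The 4 desaturase genes that make polyunsaturated fatty acids were all called higher in L1 than in embryo, and 3 of them were called lower in young adult than in L1. The first of these steps belongs to fat-2 (chromosome IV, 13323873 to 13326395, plus strand, 3 exons), whose enzyme turns oleic into linoleic acid. It had 21 reads in the embryo library, 2557 in L1 and 879 in young adult, or 22.3, 2514 and 546 RPM. The L1 value was the highest of any of the 10 genes in any library. It was 113-fold higher in L1 than in embryo (73.6 to 182), 24.5-fold higher in young adult than in embryo (15.9 to 39.7) and 4.61-fold lower in young adult than in L1 (4.27 to 4.98).

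The delta-6 gene fat-3 (chromosome IV, 9803023 to 9806119, plus strand, 7 exons) acts next, on linoleic and alpha-linolenic acid. Its reads numbered 46 in embryo, 941 in L1 and 244 in young adult, or 48.8, 925 and 151 RPM. It was 18.9-fold higher in L1 than in embryo (14.1 to 26.1) and 6.11-fold lower in young adult than in L1 (5.30 to 7.06), the largest fold among the members called lower in that comparison. Young adult was 3.10-fold higher than embryo (2.25 to 4.35). The delta-5 gene fat-4 (chromosome IV, 9799429 to 9802226, plus strand, 8 exons) makes arachidonic and eicosapentaenoic acid. It had 162 reads in embryo, 819 in L1 and 559 in young adult, or 172, 805 and 347 RPM, so its embryo level was less far below the others than those of fat-2 and fat-3. It was 4.68-fold higher in L1 than in embryo (3.95 to 5.57) and 2.32-fold lower in young adult than in L1 (2.08 to 2.59). Young adult against embryo gave 2.02-fold (1.69 to 2.42), not called, but called higher with TMM factors, with DESeq2 size factors and without ribosomal protein and mitochondrial genes in the totals.

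The omega-3 desaturase gene fat-1 (chromosome IV, 13315644 to 13318811, plus strand, 3 exons) turns omega-6 into omega-3 fatty acids, a step that mammals lack. It had 179 reads in embryo, 632 in L1 and 460 in young adult, or 190, 621 and 286 RPM. Its levels varied less over the 3 libraries than those of the other 6 desaturase genes. It was 3.27-fold higher in L1 than in embryo (2.76 to 3.88). Young adult against embryo gave 1.502-fold (1.26 to 1.80), called higher only with TMM and DESeq2 factors among the scalings tried. Young adult lay 2.18-fold below L1 (1.93 to 2.46), just short of the threshold, and was called lower with each of the other 3 scalings.

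These 4 genes are neighbours in pairs. The fat-1 and fat-2 genes lie 5061 bases apart on the same strand of chromosome IV with 0 protein-coding genes between them, and fat-4 and fat-3 lie 796 bases apart, also on the same strand with 0 between. Neighbours did not keep a fixed proportion of reads, a measure that does not depend on how the libraries are scaled. Per fat-1 read there were 0.117 fat-2 reads in the embryo library, 4.05 in L1 and 1.91 in young adult. Per fat-4 read there were 0.284 fat-3 reads in embryo, 1.15 in L1 and 0.436 in young adult. The stage profile of fat-1 was closer to that of fat-4, at 0.905 fat-4 reads per fat-1 read in embryo, 1.30 in L1 and 1.22 in young adult. By Euclidean distance of centred log2 levels over the 3 libraries, fat-4 and fat-1 were the closest pair of members at 0.39, and fat-7 and fat-2 the most distant at 6.20.

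The elongase genes among the members, elo-1, elo-2 and elo-5, were all called higher in young adult than in embryo. ELO-1 lengthens the delta-6 products between the steps of FAT-3 and FAT-4. The elo-1 gene (chromosome IV, 9526366 to 9528336, plus strand, 4 exons) had 94 reads in embryo, 326 in L1 and 726 in young adult, or 99.8, 321 and 451 RPM. It was 3.21-fold higher in L1 than in embryo (2.55 to 4.08) and 4.51-fold higher in young adult than in embryo (3.64 to 5.66). Young adult over L1 gave 1.41 (1.23 to 1.61), not called.

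The elo-2 gene (chromosome IV, 17466062 to 17467408, minus strand, 5 exons) was the one member whose L1 level was near that of embryo. It had 61 reads in embryo, 86 in L1 and 629 in young adult, or 64.8, 84.6 and 390 RPM. L1 over embryo gave 1.31 (0.929 to 1.84), an interval that holds 1. The gene was 4.62-fold higher in young adult than in L1 (3.68 to 5.85) and 6.03-fold higher in young adult than in embryo (4.63 to 7.97).

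The elo-5 gene (chromosome IV, 5374616 to 5377117, minus strand, 4 exons) was nearly unseen in the embryo library. It had 3 reads there, 332 in L1 and 1017 in young adult, or 3.19, 326 and 631 RPM. It was 102-fold higher in L1 than in embryo (34.8 to 499) and 198-fold higher in young adult than in embryo (67.6 to 962), and both intervals are wide because of the 3 embryo reads. Young adult over L1 gave 1.93 (1.71 to 2.20), not called. Its partner gene elo-6, 9511 bases away on the same strand with 3 protein-coding genes between, had 22 reads in embryo, 301 in L1 and 407 in young adult. Of the reads of both genes elo-5 held 12% in embryo (2.55% to 31.2%), 52.4% in L1 (48.5% to 56.4%) and 71.4% in young adult (69.0% to 73.8%). In the annotation elo-5 overlaps its neighbour F41H10.3 by 162 bases.

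The make-up of the reads of the 10 genes, which does not depend on scaling, differed between the libraries. The 3 elongase genes held 26.1% of these reads in embryo (22.6% to 29.8%), 11.2% in L1 (10.4% to 11.97%) and 42.3% in young adult (41.0% to 43.6%). The 4 genes fat-1 to fat-4 held 67.3% in embryo, 74.4% in L1 and 38.2% in young adult. Within the 10, fat-2 alone held 3.47% in embryo, 38.4% in L1 and 15.7% in young adult, and elo-5 held 0.495%, 4.99% and 18.1% in the same order. The share of the delta-9 genes was 6.60% in embryo, 14.4% in L1 and 19.5% in young adult, the 1 class whose share was larger at each later stage.

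**Figure D3:**
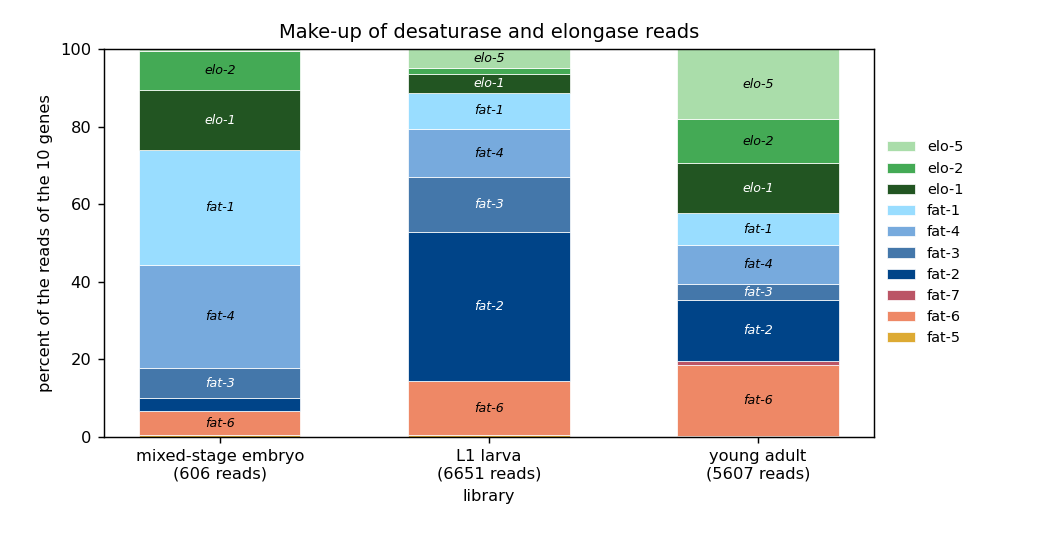
Percent of the reads of the 10 genes that each gene took in the embryo (606 reads), L1 (6651 reads) and young adult (5607 reads) libraries, stacked to 100. The omega-3 and delta-5 genes fat-1 and fat-4 lead in embryo, fat-2 in L1, and fat-6 and elo-5 in young adult.

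Levels of different genes were compared as RPM per kilobase of coding sequence. This division raises genes with a short coding sequence, such as elo-2 and elo-5 (822 bases), against longer ones such as fat-4 (1341 bases). Whether native RNA reads call for it was not tested. In the embryo library the order of levels was fat-1 (158), fat-4 (128), elo-1 (116), elo-2 (78.8), fat-6 (38.6), fat-3 (36.8), fat-2 (19.8), elo-5 (3.88), fat-5 (3.19) and fat-7 at 0. There fat-1 and fat-4, fat-4 and elo-1, fat-6 and fat-3, elo-5 and fat-5, and fat-5 and fat-7 did not differ beyond their counting error. In the L1 library fat-2 led at 2229 RPM per kilobase, followed by fat-6 (899), fat-3 (696), fat-4 (600.5), fat-1 (515), elo-5 (397), elo-1 (371), elo-2 (103), fat-5 (27.6) and fat-7 at 0. The step from fat-6 to fat-2 was 2.48-fold (2.30 to 2.68), and elo-5 and elo-1 were the only neighbours whose ratio held 1. In the young adult library elo-5 led at 768, followed by fat-6 (630), elo-1 (522), fat-2 (484), elo-2 (475), fat-4 (259), fat-1 (237), fat-3 (114), fat-7 (29.4) and fat-5 (8.08). There elo-1 and fat-2 did not differ beyond counting error, nor did fat-2 and elo-2 or fat-4 and fat-1. By this measure the top of the order was fat-1 or fat-4 in embryo, fat-2 in L1 and elo-5 in young adult. Without the division by length, elo-5 did not lead in young adult. There fat-6 had 641 RPM (602 to 681) and elo-5 631 RPM (593 to 671), and fat-2 (546) stood above elo-1 (451). In L1, fat-3 (925 RPM) and fat-6 (914 RPM) were then level within counting error.

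The calls in 7 lists of related genes are read against the shares of all compared genes given above. Of the other 6 elongase genes 3 had enough reads, and elo-6 was the one called higher, at 12.7-fold in L1 over embryo (8.21 to 20.5) and 10.8-fold in young adult over embryo (7.04 to 17.4). The elo-3 gene was called lower in L1 than in embryo, with 19 reads against 62, but not with TMM factors. With 42 reads in embryo, 20 in L1 and 6 in young adult, elo-4 was called lower in young adult than in either other library. The 3 other enzymes of the elongation cycle had 0 calls in all 3 comparisons, with let-767 (the ketoacyl reductase) at 338 reads in embryo, 657 in L1 and 811 in young adult, hpo-8 (the dehydratase) at 175, 398 and 504, and art-1 (the enoyl reductase) at 274, 182 and 460. With TMM factors 2 of the 3 were called higher in L1 than in embryo and 2 in young adult than in embryo.

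Desaturases receive electrons through cytochrome b5. Of the 4 genes for electron supply, cytb-5.2 had 233 reads in embryo, 671 in L1 and 260 in young adult. It was called higher in L1 than in embryo at 2.67-fold (2.29 to 3.11) and lower in young adult than in L1 at 4.09-fold (3.54 to 4.74), and like fat-2, fat-3 and fat-4 it was highest in L1. The cytb-5.1 gene, with 338 reads in embryo, 292 in L1 and 378 in young adult, and hpo-19, with 177, 201 and 564, had no call. With TMM and DESeq2 factors hpo-19 was called higher in young adult than in embryo. Among 5 genes of fatty acid synthesis, which supplies the chains, fasn-1 (fatty acid synthase) had 223 reads in embryo, 39 in L1 and 45 in young adult and was called lower in L1 than in embryo and in young adult than in embryo. The citrate lyase gene acly-2, with 18 reads in embryo, 33 in L1 and 114 in young adult, was called higher in young adult than in embryo at 3.70-fold (2.24 to 6.47). Of 3 sphingolipid desaturase and hydroxylase genes, fath-1 was called lower in L1 than in embryo, with 57 reads against 158, and ttm-5 lower in young adult than in embryo, with 8 reads against 34, neither of them with TMM factors. The other gene, F33D4.4, had 65 reads in embryo, 84 in L1 and 174 in young adult and no call. With TMM and DESeq2 factors F33D4.4 was called higher in young adult than in embryo.

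The 7 regulators are transcription factors and a Mediator subunit known to act on fat genes. For L1 against embryo 5 of them were compared, and 6 in each of the other pairs. None was called higher, where 13.4%, 14.5% and 13.2% of all compared genes were. With so few genes, 0 calls is near those shares. The nuclear receptor gene nhr-49 had 229 reads in embryo, 144 in L1 and 118 in young adult, and nhr-66 had 68, 46 and 29. The Mediator gene mdt-15 had 60 reads in embryo, 50 in L1 and 18 in young adult, and was called lower in young adult than in L1 at 4.4-fold (2.52 to 8.01). In L1 against embryo the 1 call, nhr-13 with 6 reads against 33, was lower, though not with TMM factors. In young adult against embryo nhr-49, nhr-66 and mdt-15 were called lower, 3 of the 6 with enough reads, where 29.3% of all compared genes were. With TMM factors none of the 6 was. The daf-16 gene is listed at 0 in all 3 libraries. Of 13 genes for acyl activation and transfer into glycerolipids, 12 had enough reads in L1 against embryo, and 0 of them were called. In young adult against L1 the 1 call was acs-1, an acyl-CoA synthetase known to act on branched-chain fatty acids, with 106 reads in young adult and 3 in L1, 22.3-fold higher (7.43 to 110), and it had 0 reads in embryo. In young adult against embryo acs-1 was called higher, at least 20.7-fold against the floor of 3 reads, with an exact interval that starts at 16.5. The acs-22 gene was called lower there, with 36 reads against 68, but not with any of the other 3 scalings. The nhr-13, acs-1 and acs-22 genes were picked out after their values were seen. The 4 genes of that list with most reads, mboa-6, acl-4, mboa-2 and acl-2, had no call in any comparison.

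**Figure D4:**
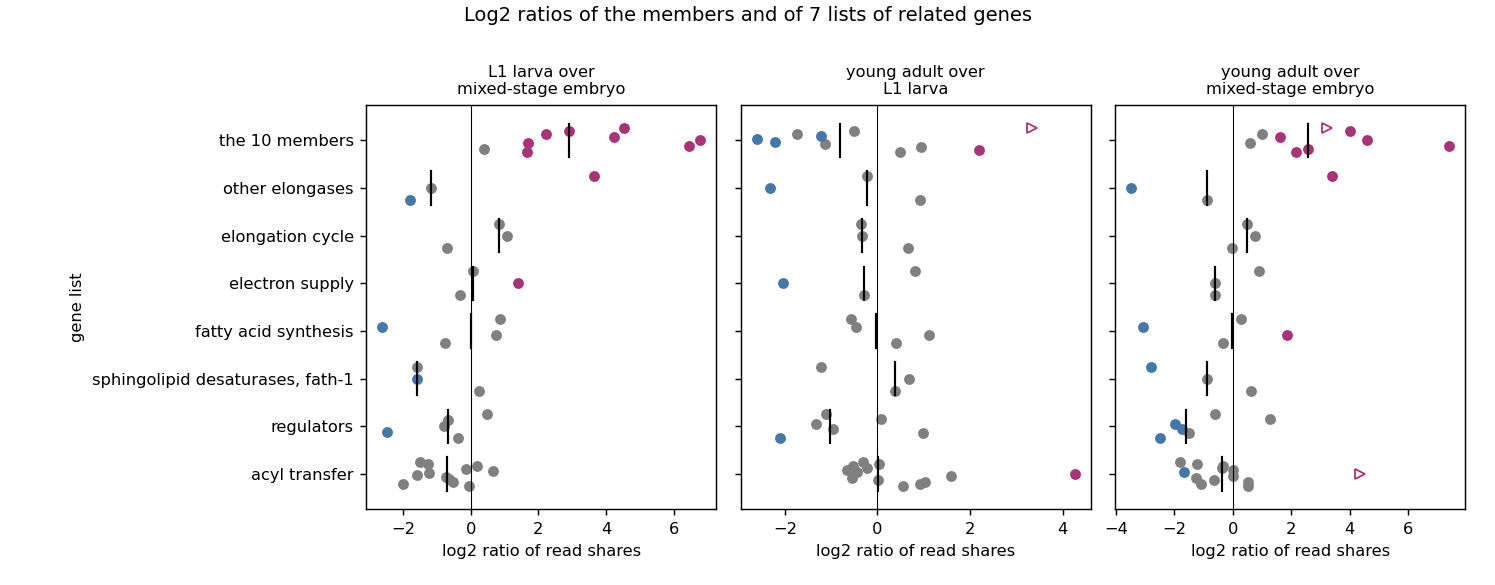
Log2 ratio of read shares for the compared members and the compared genes of 7 related lists in the 3 comparisons; each point is a gene, red is called higher, blue lower and grey neither, open triangles are values against the floor of 3 reads where the other library had 0, and black bars are list medians. The members' medians are 2.91, -0.82 and 2.58; with TMM factors values in the first panel move up by 0.87 and those in the last by 0.80, so small list medians change sign there.

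For 3 members, the genes with the most similar profile were found among 5014 genes with 100 or more reads in all, as the smallest distance over 3 values. The nearest to fat-2 were C50F4.8 (distance 0.12; 1 read in embryo, 161 in L1 and 61 in young adult), F10G2.1 and C24B9.3. The nearest to fat-7 were C30G12.2 (0.10; 3 reads in embryo, 3 in L1 and 370 in young adult), T22B7.7 and ssq-2. The nearest to elo-5 were T21H3.1 (0.09; 5 reads in embryo, 513 in L1 and 1476 in young adult), F59C6.16 and nspc-9. With 3 libraries many profiles lie near each other, so these names are a description. Those for fat-7 also depend on the 0.5 read added to its counts of 0.

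The deposited table splits each gene into isoform rows, some with an annotated transcript name and most with the identifier of a read. The 10 genes had 475 rows, of which 425 held reads over the 3 libraries and 77 held at least 10 of them. They numbered 118 for fat-2 and 98 for fat-4, but 7 for fat-7 and 5 for fat-5, the members with fewest reads. Rows with at least 2 reads in a library numbered 38 in embryo, 159 in L1 and 117 in young adult. With row values rounded to whole reads and each library thinned to the embryo total, their expected number was 44 in embryo, 181.7 in L1 and 104 in young adult. The embryo library loses no reads by this, so its step from 38 to 44 comes from the rounding. The counts before and after thinning therefore do not show the effect of depth. Annotated names were on 31 rows, of which 17 were found in Ensembl release 115, so the exon structure of the other rows is not described here.

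How much of a gene its named rows held ranged widely. For fat-7, 88.6% of 48.2 estimated reads lay in the named row F10D2.9.1, the annotated 5-exon transcript. For fat-3 the 6 named rows held 66.3%, led by the full 7-exon transcript W08D2.4a.1 with 300.5 of 1231 reads. In fat-1 the annotated transcript held 43.1% and an unnamed row 45.3%. In elo-1 the annotated full transcript held 43.3% and an unnamed row 46.3%. In fat-4, elo-5 and fat-5 the named rows held almost nothing. The full fat-4 transcript T13F2.1a.1 had 0 of 1541 reads, while 1 unnamed row had 1039.9. The annotated elo-5 transcript F41H10.7.1 had 1.06 of 1352 reads, while 1 unnamed row had 1014. The fat-5 gene had 0 named rows. In fat-6 the full transcript VZK822L.1a.1 had 1.34 of 1999 reads, with 334.8 and 333.3 in the named rows VZK822L.1a.2 and VZK822L.1b.1 and 963 in the leading unnamed row. How a read came to carry an annotated name is not given in the sources used here, so how unnamed rows differ from named ones is not described here. Some rows could not be separated: the fat-3 rows W08D2.4b.1, W08D2.4c.1 and W08D2.4d.2 have the same pooled value of 80.65 reads, though the annotated W08D2.4b.1 is 558 bases long and W08D2.4c.1 is 234.

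**Figure D5:**
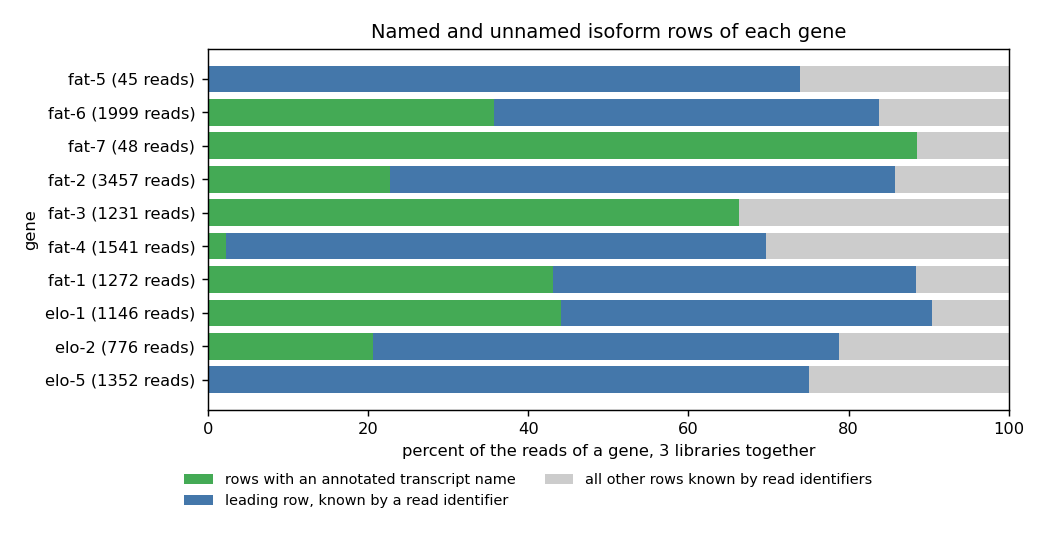
Percent of the estimated reads of each gene, over the 3 libraries together, in rows with an annotated transcript name (green), in the leading row where that is known by a read identifier (blue) and in all other read-identifier rows (grey). Named rows hold 88.6% of fat-7 reads and 66.3% of fat-3 reads, but 2.26% of fat-4, 0.0783% of elo-5 and 0% of fat-5 reads.

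The shares of rows within a gene were compared between stages. Of the rows of the 10 genes, 3 had share intervals that did not overlap between young adult and L1, and 0 between L1 and embryo, where fewer embryo reads widen the intervals. No such count is given for the rows of all genes, so whether 3 is few or many was not tested. In fat-6 the leading unnamed row held 52.1% in young adult (49.03% to 55.2%) and 43.9% in L1 (40.7% to 47.1%). In fat-2 the leading unnamed row held 67.1% in young adult (63.9% to 70.2%) and 61.6% in L1 (59.7% to 63.5%), while the named row W02A2.1a.2 held 17.3% in young adult (14.8% to 19.96%) and 24.5% in L1 (22.9% to 26.3%). Both fat-2 differences are thus of 1 gene and of opposite sign, as shares of a gene must balance. In fat-4 the leading row held 72.3% in young adult (68.4% to 75.9%) and 65.6% in L1 (62.2% to 68.8%), intervals that overlap narrowly. In the other members with reads in both libraries, all rows had overlapping intervals. Of the 475 rows, 15 have library values that do not sum to their pooled value. The library split of isoform reads is an estimate of the authors, and comes without an error.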

How the data were processed

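The authors' deposited series table gives estimated counts per isoform row and library, most of them fractional and not scaled for depth. Per the labels' protocols, R9.4.1 flow cells, MinKNOW 2.1 and the base-caller Albacore 2.0.1 were used, and minimap2 2.14 is named in the submitters' processing notes. How reads were assigned to isoforms, and with which build and annotation, is not given in the sources used here. Such an assignment can move reads between isoforms and between similar genes. A placeholder of 1e-08 was taken as 0. The deposited per-sample tables hold a coverage signal for 15323 genes. Its median factor to the estimated reads was 1.326721 in each library. The signal was used for symbols and this check only. The number of per-sample columns not used was 0.

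Estimated counts were summed per gene, rounded to whole reads and divided by library totals. Ratios of read shares have exact conditional binomial (Clopper-Pearson) 95% intervals. On the log2 scale 0.5 read was added per library, and level intervals are exact Poisson intervals. With 1 library per stage no p-value can be given. Alternatives were edgeR TMM factors, DESeq2 size factors, totals without ribosomal protein and mitochondrial genes, named rows only, other read minimums and other fold thresholds. The ratio script was tested on simulated data. Members, lists and markers were chosen with earlier results of these data known. All 10 members are named, and of each list up to 4 genes with most reads, with exceptions stated. Positions and lengths come from Ensembl release 115 (WBcel235). Sequences were not used here. Tools were Python 3.11.15, numpy 2.4.6, pandas 2.3.3, scipy 1.17.1, matplotlib 3.10.9, R 4.3.3, edgeR 4.0.16 and DESeq2 1.42.0.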

Additional observations from a re-analysis of the deposited data

How the results depend on the processing

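No paired analysis was possible because each stage is 1 library. For L1 against embryo, 4 members were called higher with a bound at least 4-fold from 1 (8.82% of all compared genes), and 5 with named rows only (12.8%). For young adult against L1, 1 member was called higher with at least 100 reads over the pair (22.4% of all compared genes) or with the 4-fold bound (4.13%), and with intervals that leave out 1 there were 4 higher and 6 lower (39.7% and 28.2%). With named rows only, fat-4 was no longer called in L1 against embryo (log2 ratio 1.62) or in young adult against L1 (-1.77), nor fat-3 in young adult against embryo (1.46); fat-5 and elo-5, and fat-4 in young adult against embryo, had under 20 such reads and were not compared. No ratio that could be compared reversed with the other 3 scalings or with named rows only. Rows with at least 1 read numbered 59 in embryo and 185 in young adult, both fewer than in L1. Rows with at least 5 reads numbered 17 in embryo, 85 in L1 and 72 in young adult. Depth limits fat-5 in every library (28 reads or fewer), fat-7 in embryo and L1 (0 reads) and elo-5 and fat-2 in embryo (3 and 21 reads). The spread between animals was not measured, so no difference has a replicate check.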
